A study of Homo sapiens with 9 samples.

Results

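A set of 44 genes of the lysosome, of the proton pump that acidifies it (the V-ATPase) and of the TFEB family of transcription factors was followed in MDA-MB-231 cells after treatment with rimonabant or TXX-1-10. The genes were chosen by name, and all 44 were found among the 27615 genes of the longest of the 9 deposited lists. MDA-MB-231 is an established triple-negative breast cancer line. The 9 libraries comprise 3 of cells treated with DMSO, here called vehicle, 3 of cells treated with rimonabant, a drug that blocks the cannabinoid receptor CB1, and 3 of cells treated with TXX-1-10, a compound derived from rimonabant that the study examined as an inhibitor of the oncoprotein HPIP. All are the same cell line, so the results describe 1 line in culture. The dose and duration used for the sequenced cells are not given in the sources used here, so the values of the compounds stand side by side and their doses cannot be matched. The labels do not say that the 3 libraries of a treatment came from separate cultures, so that p-values measure the spread between libraries, which may be technical.

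Lysosomes digest proteins, lipids, glycans and organelles with acid hydrolases, whose work depends on the low pH made by the V-ATPase. The pump has a membrane sector, V0, through which protons pass, and a cytosolic sector, V1, which hydrolyses ATP. TFEB, TFE3 and MITF are related transcription factors that move to the nucleus when the kinase mTORC1 is less active at the lysosomal surface. They bind E-box sequences in the promoters of many lysosomal genes and raise their transcription.

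For each gene the deposited lists give a read count and an FPKM value, the reads per kilobase of exon, scaled to the library total. The library totals behind the FPKM values were 17078370 to 17245379 in vehicle, 17477838 to 18813662 in rimonabant and 18394759 to 19277808 in TXX-1-10. Each list is ordered by falling counts and ends at its own point, and a gene beyond the end of a list is not at 0. Of the 44 genes, 36 are listed for all 9 libraries, 6 for 8 libraries (not for rimonabant replicate 1) and 2, TFEB and ATP6V0C, for 7 libraries (also not for vehicle replicate 2). VIM, CD44, EGFR, KRT8 and KRT18 were detected in every library, ESR1 and PGR had at most 13 reads where listed, and CDH1 had 0 reads in the 4 libraries that list it. EPCAM and ERBB2, fixed as low markers of this line, were detected at 4.47 to 5.37 and at 6.996 to 9.52 FPKM. Markers of fibroblasts, leukocytes and endothelial cells had at most 135 reads where listed, and CD3E is in no list. In rimonabant replicate 1 and TXX-1-10 replicate 3 the deviation of a gene from its treatment mean fell with gene length (Spearman rho of -0.694 and -0.692 across genes). Of the 36 members listed for all libraries, 31 were highest among the TXX-1-10 libraries in replicate 3, and 28 were highest among the rimonabant libraries in replicate 1.

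With TXX-1-10 most of these genes were higher than with vehicle. Of 36 members tested in all 9 libraries, 30 rose, 4 fell and 2 did not pass the test (edgeR quasi-likelihood test, Benjamini-Hochberg adjusted p under 0.05 over 4236 genes). In the same fit 30.5% of all tested genes were higher and 43.8% were lower. The median log2 fold change was 0.58 for the members and -0.09 for all tested genes. A log2 fold change of at least 1 beside the adjusted p, the study's thresholds, was met by 10 members that rose, against 4.2% of all genes, and by 1 that fell, against 7.6%. Those that rose were NEU1, TPP1, CTSL, GRN, PSAP, ASAH1, NPC2, CD63, CTSA and ATP6V1B2, and the one that fell was CTSC.

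With rimonabant the changes were smaller. In the same fit 27 of the 36 members rose, CTSC and LIPA fell and 7 did not pass, against 23.7% of all genes higher and 25.2% lower. Their median log2 fold change was 0.41, and that of all tested genes was -0.02. No member met both thresholds with rimonabant by edgeR, DESeq2 or limma, nor with an unadjusted p under 0.05 in place of the adjusted one (0 of 36). Among all genes 0.519% met them upward and 0.614% downward. The comparisons with vehicle share the same 3 vehicle libraries, which favors calls in the same direction. The joint counts that follow were not taken over all genes. By their separate calls 25 members were higher with both compounds, 2 were lower with both, 5 were higher with TXX-1-10 without passing for rimonabant, and ATP6V1A was lower with TXX-1-10 and higher with rimonabant.

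The compounds were also compared directly. TXX-1-10 was above rimonabant for 23 of the 36 members and below it for 5, with 8 not passing, where 25.1% of all genes were higher and 39.4% lower. The members' median difference was 0.26 on the log2 scale, beside -0.08 for all genes. With library totals as scale, no member differed by a log2 fold change of 1 or more by edgeR, also at an unadjusted p under 0.05 (0 of 36). With DESeq2 3 members did. Those were TPP1, CTSL and NEU1, whose edgeR differences with library totals were 0.996, 0.96 and 0.93. By edgeR the count was also 3 with TMM or median scaling. Among all genes 1.58% were past both thresholds upward and 4.34% downward.

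Of the 6 members fitted on 8 libraries, 5 rose and MITF fell with either compound, and TXX-1-10 was above rimonabant for 3 and below it for 1. In that fit of 9369 genes, 34.7% were higher and 40.6% lower with TXX-1-10. With rimonabant 23.7% were higher and 22.8% lower, and TXX-1-10 was above rimonabant for 26.7% and below it for 33.9%.

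The counts were also taken under other scalings. Scaling by TMM, DESeq2 size factors or the median moved the median of all genes for TXX-1-10 against vehicle from -0.09 to 0.00, 0.01 and 0.01. Of the members 30, 31 and 30 were then higher. Of all 4236 tested genes 1568, 1616 and 1570 were then higher, in place of 1294. Those lower numbered 1570, 1627 and 1561, in place of 1857. For TXX-1-10 against rimonabant, the split of all calls moved from 1065 higher and 1667 lower to 1381 and 1349 with TMM, and the members' split from 23 and 5 to 24 and 3. Without rimonabant replicate 1 and TXX-1-10 replicate 3, the members' medians were 0.54 for TXX-1-10 against vehicle, 0.35 for rimonabant against vehicle and 0.26 for TXX-1-10 against rimonabant. The medians of all tested genes were then -0.11, -0.03 and -0.08. The members' calls were 30 higher and 5 lower, 28 and 4, and 24 and 6. The count past both thresholds with TXX-1-10 was 6 in place of 10 without these libraries, and also without TXX-1-10 replicate 3 alone. CTSA, NPC2, CD63 and ATP6V1B2 then lay at log2 fold changes of 0.98, 0.92, 0.91 and 0.98. ATP6V1B2 was also under 1 without vehicle replicate 2, with the gene length correction and with limma.

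**Figure D1:**
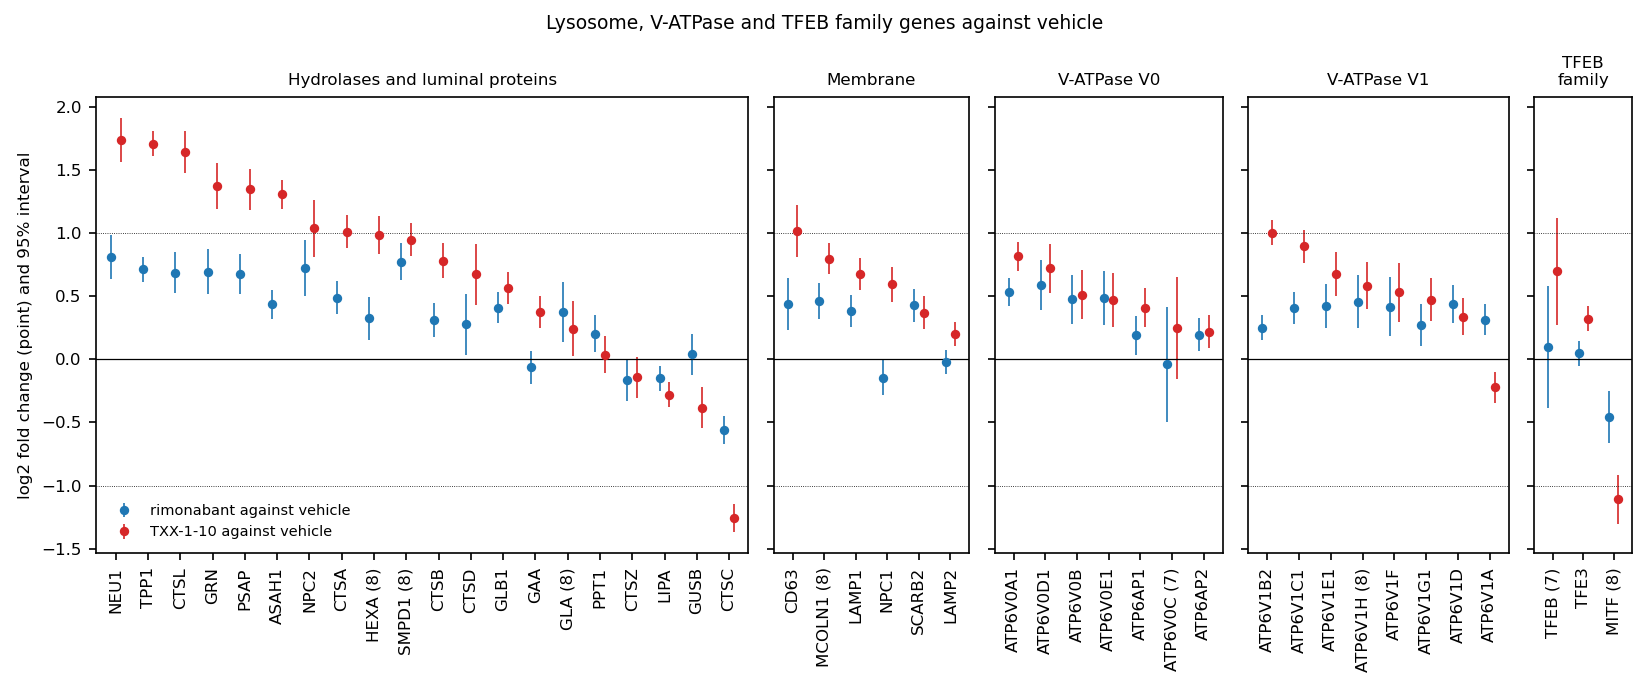
Log2 fold change against vehicle (points) with its 95% interval (lines) for all 44 genes in 5 role groups, rimonabant in blue and TXX-1-10 in red, with dotted lines at 1 and -1. A number in brackets marks genes fitted on 8 or 7 libraries. Most red points lie above 0, CTSC and MITF lie below -1, and V-ATPase genes of the V0 sector have blue and red points close together.

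The 36 genes took a larger share of each treated library. Their counts made up 0.600%, 0.594% and 0.601% of the library total in vehicle, 0.833%, 0.746% and 0.756% in rimonabant, and 1.02%, 1.001% and 1.12% in TXX-1-10. The ranges of the 3 treatments did not overlap. Relative to vehicle the mean share was 1.75 times higher with TXX-1-10 and 1.30 times higher with rimonabant. Hydrolases and luminal proteins had ratios of 1.92 and 1.34, membrane proteins 1.68 and 1.23, the V0 sector 1.45 and 1.35, and the V1 sector 1.499 and 1.30. As such a share is a sum of counts, genes with many reads, such as PSAP, weigh most in it. The median log2 fold change of the 36 genes was 0.58 with TXX-1-10 and 0.41 with rimonabant. Without the libraries that showed the length trend, the mean share was 1.01% with TXX-1-10 and 0.751% with rimonabant. A share of bulk RNA cannot tell a change in how many cells express a gene from a change in RNA per cell.

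On the FPKM scale, which is per length, PSAP was the most abundant of the 44 in vehicle-treated cells at 229 ± 4.0 (SD, n = 3). CD63 followed at 184 ± 0.52, then ATP6V1F at 116 ± 5.3 and CTSZ at 111 ± 3.9, whose ranges overlapped, and GRN at 102 ± 5.7. The lowest were MITF at 3.83 ± 0.37, HEXA at 2.71 ± 0.25 and TFEB at 0.624 ± 0.19 (n = 2). In TXX-1-10-treated cells PSAP and CD63 still led, and GRN came next at 265 ± 18.

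The sequences shown are those that carry the motif to which the TFEB family binds. Promoter windows from RefSeq (GRCh38.p14), 250 bases before to 50 after the gene start in RefSeq, were at hand for 34 of the 44 genes. CTSB, HEXA, ASAH1, PSAP, LAMP2, ATP6V0E1, ATP6V1A, ATP6V1B2, ATP6V1C1 and ATP6V1H had none. The E-box CACGTG, which reads the same on both strands, was found in 10 of the 34 windows (29.4%), beside 7.43% of 27305 promoters in all and 11.9% of the 3501 promoters of tested genes. The longer TCACGTGA, which contains the E-box and lies within the CLEAR element bound by TFEB, was found in 6 (17.6%), beside 1.04% and 2.51%. Of the 10 genes with an E-box, 4 encode hydrolases (CTSA, CTSD, GAA and NEU1), 3 membrane proteins (LAMP1, MCOLN1 and CD63) and 3 V-ATPase subunits (ATP6V0B, ATP6V0D1 and ATP6V1G1). The RefSeq start differs from the 5′ end of the gene's locus in the annotation of the counts. It lies inside that locus by 1191 bases for CTSA, 698 for CD63, 646 for CTSD, 473 for ATP6V0B and 80 for ATP6V0D1. For NEU1, GAA and ATP6V1G1 it lies inside by 85, 25 and 23 bases, and for LAMP1 and MCOLN1 just before the locus. The printed stretches of CTSA, CD63, CTSD, ATP6V0B and ATP6V0D1 lie wholly in annotated exons of their own gene, and the other 5 lie outside the locus. In the following stretches, written 5′ to 3′ along the gene's strand, capitals mark the E-box.
NEU1: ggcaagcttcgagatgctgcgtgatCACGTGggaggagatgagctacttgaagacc
LAMP1: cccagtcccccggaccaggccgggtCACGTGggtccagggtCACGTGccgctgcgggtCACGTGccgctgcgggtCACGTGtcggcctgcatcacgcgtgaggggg
MCOLN1: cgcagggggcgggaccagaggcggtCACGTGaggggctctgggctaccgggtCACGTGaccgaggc
ATP6V1G1: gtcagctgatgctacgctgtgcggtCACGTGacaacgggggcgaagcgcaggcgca
CTSA: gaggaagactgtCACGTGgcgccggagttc
CTSD: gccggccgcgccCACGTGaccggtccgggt
GAA: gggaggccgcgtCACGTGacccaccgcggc
CD63: ccgggtaggggcCACGTGgccctggccggg
ATP6V0B: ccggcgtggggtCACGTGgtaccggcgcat
ATP6V0D1: cccccttatggtCACGTGaggcgcttgcgc

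On GRCh38.p14 these lie at chr6:31862917-31862972 (minus strand) for NEU1, chr13:113297022-113297127 (plus) for LAMP1, chr19:7522558-7522623 (plus) for MCOLN1 and chr9:114587686-114587741 (plus) for ATP6V1G1. The 30-base stretches lie at chr20:45891281-45891310 (plus) for CTSA, chr11:1763957-1763986 (minus) for CTSD, chr17:80101493-80101522 (plus) for GAA and chr12:55729172-55729201 (minus) for CD63. Those of the V-ATPase genes lie at chr1:43974891-43974920 (plus) for ATP6V0B and chr16:67481199-67481228 (minus) for ATP6V0D1. The window of LAMP1 held 6 E-boxes in all, from 192 bases before the start to 1 base before it, and those of CTSA, GAA, MCOLN1 and ATP6V0B held 2 each. In 4 of the printed stretches (GAA, MCOLN1, ATP6V0D1 and ATP6V1G1) an E-box is part of the longer motif.

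All 10 genes with an E-box rose with TXX-1-10 (median log2 fold change 0.70), and 8 of the 10 rose with rimonabant (median 0.45), CTSD and GAA being the exceptions. Of the 22 tested members with a window and no E-box, 16 rose, 4 fell and 2 did not pass with TXX-1-10 (median 0.39), and 15 rose, 3 fell and 4 did not pass with rimonabant (median 0.39). Among 407 other tested genes with an E-box, 31.9% were higher with TXX-1-10, beside 29.6% of 3066 without it, and with rimonabant the shares were 20.1% and 23.9%. Of 83 other genes with the longer motif 33 were higher and 31 lower. NEU1, the gene with the largest rise of the 44, carries an E-box, while TPP1 and CTSL, which follow it, have none in their windows. A match shows that the letters are present in these windows, and binding was not measured.

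**Figure D2:**
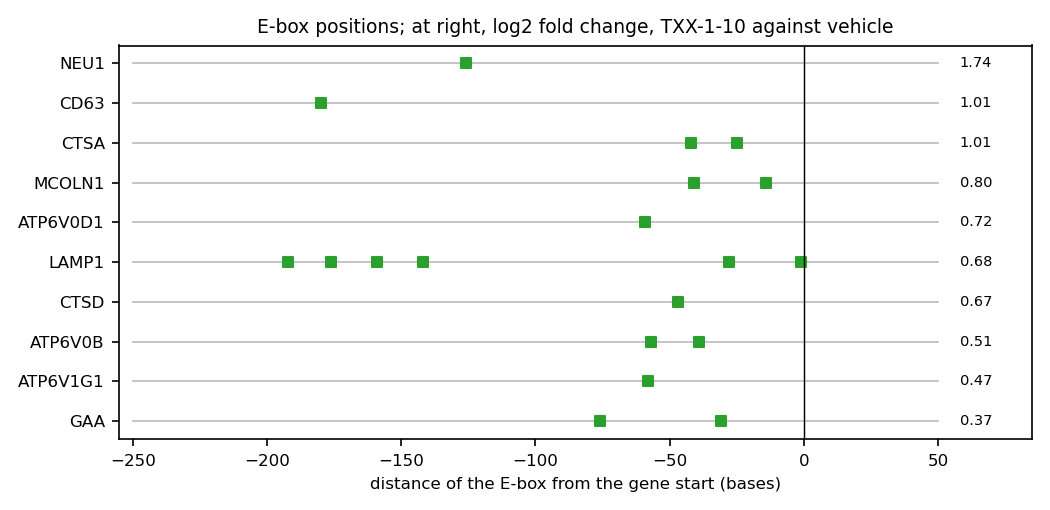
Position of each E-box (green squares) relative to the RefSeq gene start (0, in bases) in the promoter windows (grey lines) of the 10 members that hold one, ordered by log2 fold change with TXX-1-10, printed at the right. Most lie within 100 bases before the start, and LAMP1 has 6.

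Members of the TFEB family moved in different directions. TFE3 (chrX:49028726-49043486) was by far the most abundant of them. Its FPKM was 43.3, 42.5 and 43.9 in vehicle, 46.8, 43.96 and 43.4 in rimonabant, and 53.9, 53.3 and 55.1 in TXX-1-10. Every TXX-1-10 library lay above all others, while rimonabant and vehicle overlapped. TFE3 rose with TXX-1-10 by a log2 fold change of 0.32 ± 0.04 (SE, adjusted p = 7.01e-05), with rimonabant the value was 0.05 (95% interval -0.05 to 0.15), and TXX-1-10 was above rimonabant by 0.28 (adjusted p = 0.000318).

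TFEB (chr6:41683978-41736259), the family member best known as a regulator of lysosomal genes, was low. It had 47 and 74 reads in vehicle replicates 1 and 3, 74 and 67 in rimonabant replicates 2 and 3, and 115, 95 and 111 in TXX-1-10. In FPKM these were 0.487 and 0.761, 0.696 and 0.640, and 1.06, 0.914 and 1.07. The 3 TXX-1-10 libraries lay above the other 4, and the rimonabant values lay between those of the vehicle libraries. In a fit on the 7 libraries that list it, chosen after the data were seen, TFEB rose with TXX-1-10 by 0.70 on the log2 scale (95% interval 0.27 to 1.12, adjusted p = 0.00739). TXX-1-10 was above rimonabant by 0.60 (adjusted p = 0.0187), and rimonabant against vehicle gave 0.10 (95% interval -0.39 to 0.58). In that fit of 11631 genes 32.0% were higher with TXX-1-10 than with vehicle and 25.1% higher than with rimonabant. The rise of TFEB was lost without vehicle replicate 1 (0.41, adjusted p = 0.102), and its difference between the compounds was lost without rimonabant replicate 2 or 3 (0.66 and 0.54, adjusted p = 0.0645 and 0.113). Where such a fit left a treatment with 1 library, that library was assumed to vary like the others.

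MITF (chr3:69739435-69968337), best known as the master regulator of melanocytes, fell. Its FPKM was 4.20, 3.83 and 3.47 in vehicle, 2.92 and 2.67 in rimonabant replicates 2 and 3, and 1.77, 1.80 and 1.76 in TXX-1-10. The treatments did not overlap. In the fit on the 8 libraries that list it, MITF fell by 1.11 ± 0.09 on the log2 scale with TXX-1-10 (adjusted p = 2.20e-07) and by 0.46 ± 0.10 with rimonabant (adjusted p = 0.00222). TXX-1-10 was below rimonabant (log2 fold change -0.65, adjusted p = 0.000130). No E-box was found in the promoter windows of these 3 genes.

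Hydrolases and luminal proteins held the largest changes. Of 20 genes, 17 were tested in 9 libraries and 3 (GLA, HEXA and SMPD1) in 8. With TXX-1-10, 15 rose, 3 fell and 2 did not pass, with a median log2 fold change of 0.87, where 30.5% to 34.7% of all genes were higher in the 2 fits. With rimonabant 14 rose, 2 fell and 4 did not pass, with a median of 0.39, where 23.7% of all genes were higher in either fit. Between the compounds, 25.1% to 26.7% of all genes were higher with TXX-1-10 and 33.9% to 39.4% lower in the 2 fits. Of the 20 genes here, TXX-1-10 was above rimonabant for 14 and below it for 4. Of the latter CTSC and GUSB differed in every fit, while PPT1 (-0.17, adjusted p = 0.0456) and LIPA (-0.13, adjusted p = 0.0306) were lost with TMM, DESeq2, median scaling or the replicate block. Leaving out 1 library removed the PPT1 difference in 8 of 9 fits (all but the one without TXX-1-10 replicate 3) and that of LIPA in 6 of 9 (any rimonabant or TXX-1-10 library).

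NEU1 (chr6:31857659-31862906), the sialidase that removes sialic acid from glycoproteins, measured 16.3, 16.8 and 16.2 FPKM in vehicle. It measured 31.9, 26.8 and 27.8 in rimonabant and 53.4, 51.1 and 59.7 in TXX-1-10. The groups were stepwise and did not overlap. NEU1 rose by 1.74 ± 0.08 with TXX-1-10 (SE, log2 scale, adjusted p = 1.97e-08) and by 0.81 ± 0.08 with rimonabant (adjusted p = 2.94e-05), and the compounds differed by 0.93 (adjusted p = 3.10e-06). CTSA (chr20:45890144-45898820), the protective protein that holds NEU1 and beta-galactosidase in a complex, had 29.4, 29.4 and 31.7 FPKM in vehicle, 44.8, 39.96 and 42.2 in rimonabant and 60.02, 58.8 and 63.95 in TXX-1-10. Its groups did not overlap either. CTSA rose by 1.01 with TXX-1-10 (adjusted p = 1.25e-07) and by 0.49 with rimonabant (adjusted p = 0.000117), and 28.5% of its exonic length is shared with other genes. GLB1, the beta-galactosidase of that complex, rose by 0.57 and 0.41 (adjusted p = 6.46e-06 and 0.000252). Its difference between the compounds was 0.16 (adjusted p = 0.0299), a call lost with the replicate block (adjusted p = 0.0606). That call was also lost in 4 of 9 fits that left out 1 library (adjusted p = 0.0520 to 0.0928).

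TPP1 (chr11:6612763-6619485), the tripeptidyl peptidase lost in a childhood form of neuronal ceroid lipofuscinosis, rose with little spread between libraries. Its FPKM was 14.1, 14.4 and 14.7 in vehicle, 23.9, 24.1 and 22.8 in rimonabant, and 46.9, 48.2 and 46.0 in TXX-1-10. The lowest TXX-1-10 library thus exceeded the highest rimonabant library, and all rimonabant libraries exceeded vehicle. The log2 fold change was 1.71 ± 0.04 with TXX-1-10 (adjusted p = 6.62e-10) and 0.71 ± 0.04 with rimonabant (adjusted p = 2.46e-06), and the compounds differed by 0.996 (95% interval 0.90 to 1.09). PPT1, the palmitoyl thioesterase lost in another form of that disease, behaved otherwise. Of the exonic length of PPT1 23.4% is shared with other genes, and of that of TPP1 14.4%. PPT1 had 28.3, 28.3 and 26.9 FPKM in vehicle, 33.2, 32.1 and 30.8 in rimonabant and 26.8, 27.3 and 31.5 in TXX-1-10. Its log2 fold change was 0.04 with TXX-1-10 (95% interval -0.11 to 0.18) and 0.20 with rimonabant (adjusted p = 0.0270), a call lost in 5 of 9 fits that left out 1 library (any vehicle library, or rimonabant replicate 1 or 2, adjusted p = 0.0561 to 0.0945).

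The cathepsins, the main lysosomal proteases, did not move as a block. CTSL (chr9:87725519-87731393), a cysteine protease, measured 25.7, 26.1 and 23.8 FPKM in vehicle, 43.5, 38.5 and 39.7 in rimonabant and 75.95, 74.1 and 86.2 in TXX-1-10. CTSC (chr11:88293592-88337787), the dipeptidyl peptidase that activates serine proteases of immune cells, went the other way. It measured 20.6, 19.7 and 18.9 in vehicle, 13.7, 13.5 and 12.9 in rimonabant, and 8.02, 8.25 and 8.525 in TXX-1-10. Neither gene overlapped between treatments. CTSL rose by 1.65 ± 0.07 with TXX-1-10 and by 0.69 ± 0.07 with rimonabant (adjusted p = 1.92e-08 and 5.53e-05), while CTSC fell by 1.26 ± 0.05 and by 0.56 ± 0.05 (adjusted p = 8.17e-09 and 1.86e-05).

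CTSB, another cysteine protease, rose by 0.78 with TXX-1-10 and by 0.31 with rimonabant (adjusted p = 1.01e-06 and 0.00203). CTSD, the aspartic protease, rose by 0.67 with TXX-1-10 (adjusted p = 0.000254). For rimonabant CTSD gave 0.28 (adjusted p = 0.0578), and 52.7% of its exonic length is shared with other genes. Its FPKM was 107, 82.2 and 84.3 in rimonabant beside 74.5 to 75.7 in vehicle, so that replicate 1 stood apart, and the value was 0.15 without that library. The rimonabant value of CTSD passed with TMM, DESeq2 or median scaling (0.29, adjusted p = 0.0344, 0.00736 and 0.0341), with the length correction (0.23, adjusted p = 0.00912) and in a fit of the 2 groups alone (adjusted p = 0.0311). It also passed without rimonabant replicate 2 (0.35, adjusted p = 0.0322), without TXX-1-10 replicate 3 (0.28, adjusted p = 0.0196) and without rimonabant replicate 1 and TXX-1-10 replicate 3 together (0.15, adjusted p = 0.00162). CTSZ, a carboxypeptidase and the most abundant cathepsin of the 6 in vehicle, gave -0.14 with TXX-1-10 (95% interval -0.31 to 0.02) and -0.17 with rimonabant (95% interval -0.33 to 0.00). Without TXX-1-10 replicate 3 the CTSZ value for TXX-1-10 was -0.23 (adjusted p = 0.00613), and without rimonabant replicate 1 that for rimonabant was -0.22 (adjusted p = 0.0306). The rimonabant value, -0.17, also passed in the fit without TXX-1-10 replicate 3 (adjusted p = 0.0246).

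PSAP, GRN and NPC2 are luminal proteins without hydrolase activity of their own. PSAP (chr10:71816298-71851375), the precursor of the saposins that help enzymes reach sphingolipids, had 231, 224 and 230 FPKM in vehicle, 399, 344 and 353 in rimonabant and 568, 551 and 626.5 in TXX-1-10. GRN (chr17:44345086-44353102), the precursor of the granulins, had 97.1, 101 and 108 in vehicle, 183, 153 and 159 in rimonabant and 254, 254 and 285 in TXX-1-10. NPC2 (chr14:74476192-74494177), which hands cholesterol to NPC1, had 52.0, 51.6 and 47.7 in vehicle, 92.4, 76.7 and 80.5 in rimonabant and 97.5, 93.6 and 120 in TXX-1-10. None of the 3 overlapped between treatments, though for NPC2 the highest rimonabant library, 92.4, lay just under the lowest TXX-1-10 library, 93.6. PSAP rose by 1.35 and 0.68 with TXX-1-10 and rimonabant (adjusted p = 7.30e-08 and 5.21e-05), GRN by 1.38 and 0.69 (1.41e-07 and 9.30e-05), and NPC2 by 1.04 and 0.72 (5.48e-06 and 0.000278). The compounds differed by 0.67, 0.68 and 0.32, and the last was lost without rimonabant replicate 2 or 3 (adjusted p = 0.0574 to 0.0580).

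ASAH1, HEXA, SMPD1 and GLA act on sphingolipids. ASAH1 (chr8:18055992-18084998), acid ceramidase, had 5.13, 5.03 and 4.72 FPKM in vehicle, 6.97, 6.54 and 6.655 in rimonabant and 12.1, 11.99 and 12.7 in TXX-1-10. Its groups did not overlap. ASAH1 rose by 1.31 ± 0.05 with TXX-1-10 and by 0.44 ± 0.05 with rimonabant (adjusted p = 7.41e-09 and 9.90e-05). HEXA, which trims the ganglioside GM2, rose by 0.99 and 0.33 in the fit on 8 libraries (adjusted p = 6.55e-08 and 0.00535). SMPD1, acid sphingomyelinase, rose by 0.95 and 0.77 in that fit (adjusted p = 2.65e-08 and 4.99e-06), and its difference between the compounds, 0.18 (adjusted p = 0.0327), was lost without rimonabant replicate 2 or 3 or TXX-1-10 replicate 1 (adjusted p = 0.07002 to 0.144). GLA, alpha-galactosidase A, rose by 0.24 with TXX-1-10 (adjusted p = 0.0409) and by 0.38 with rimonabant (adjusted p = 0.0142). For GLA the TXX-1-10 call was lost without vehicle replicate 2 or 3, rimonabant replicate 2 or 3 or TXX-1-10 replicate 3 (adjusted p = 0.0571 to 0.158), its value being 0.11 in the last case. The rimonabant call was lost without vehicle replicate 3 or rimonabant replicate 2 or 3 (adjusted p = 0.0566 to 0.0766). GALC, which removes galactose from sphingolipids, is no member and was named after its values were seen. It fell by 0.78 with TXX-1-10 and by 0.68 with rimonabant in the fit on 8 libraries (adjusted p = 2.50e-07 and 1.92e-05).

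The remaining enzymes changed less. GAA, which digests glycogen, rose by 0.37 with TXX-1-10 (adjusted p = 0.000168) and gave -0.06 with rimonabant (95% interval -0.19 to 0.06). GUSB, beta-glucuronidase, fell by 0.38 with TXX-1-10 (adjusted p = 0.000858) and gave 0.04 with rimonabant (95% interval -0.12 to 0.20). The compounds differed for both genes, by 0.44 for GAA (adjusted p = 8.19e-05) and by -0.42 for GUSB (adjusted p = 0.000584). LIPA, the acid lipase that frees cholesterol from its esters, fell by 0.28 with TXX-1-10 (adjusted p = 0.000263) and by 0.15 with rimonabant (adjusted p = 0.0192). The rimonabant call of LIPA was lost without vehicle replicate 2 or rimonabant replicate 3 (adjusted p = 0.0624 to 0.0939).

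**Figure D3:**
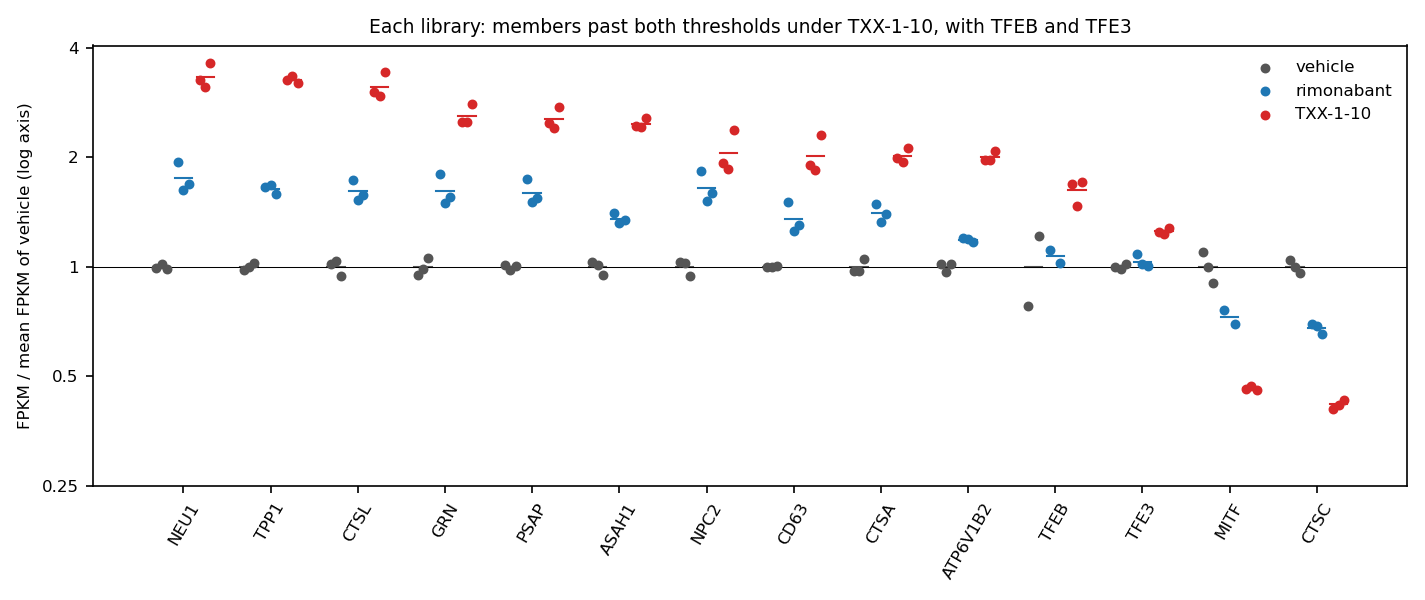
FPKM of each library divided by the vehicle mean of the gene (log axis) for members past both thresholds with TXX-1-10, with TFEB and TFE3. Points are libraries and short lines are means. For 12 of these 14 genes the 3 treatments do not overlap, while rimonabant overlaps vehicle for TFEB and TFE3. Those 12 were picked by the thresholds for TXX-1-10 against vehicle, which favors their separation from vehicle. The share of all genes without overlap was not taken.

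All 6 membrane proteins rose with TXX-1-10 (median log2 fold change 0.64), and 4 of them rose with rimonabant (median 0.41). Of all genes in the fits on 9 and 8 libraries, 30.5% to 34.7% were higher with TXX-1-10 and 23.7% with rimonabant. CD63 (chr12:55725323-55729707), a tetraspanin of late endosomes and exosomes, rose most with TXX-1-10. Its FPKM was 184, 184 and 185 in vehicle, 277, 231 and 240.5 in rimonabant, and 352, 341 and 424 in TXX-1-10. The groups did not overlap, and replicate 1 of rimonabant and replicate 3 of TXX-1-10 stood above the other libraries of their treatments. CD63 rose by 1.01 ± 0.09 with TXX-1-10 and by 0.44 ± 0.09 with rimonabant (adjusted p = 3.70e-06 and 0.00321). LAMP2 (chrX:120427827-120469365), a structural glycoprotein of the lysosomal membrane, rose least with TXX-1-10. It had 22.2, 22.1 and 21.7 FPKM in vehicle, 20.7, 22.1 and 22.2 in rimonabant and 25.4, 24.998 and 25.6 in TXX-1-10. The TXX-1-10 libraries lay above all others, and those of vehicle and rimonabant overlapped. LAMP2 rose by 0.20 with TXX-1-10 (adjusted p = 0.00165), and for rimonabant it gave -0.02 (95% interval -0.12 to 0.07).

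LAMP1, its abundant relative with 6 E-boxes in its window, rose by 0.68 with TXX-1-10 and by 0.38 with rimonabant (adjusted p = 2.24e-06 and 0.000467). MCOLN1, a calcium channel of the lysosome, rose by 0.80 and 0.46 in the fit on 8 libraries (adjusted p = 7.41e-08 and 0.000136). SCARB2, the receptor that carries glucocerebrosidase to the lysosome, rose by 0.37 and 0.43 (adjusted p = 0.000230 and 0.000266). The compounds were not told apart for SCARB2, with a difference of -0.06 (95% interval -0.19 to 0.07) that took the other sign, 0.03, when libraries were scaled by TMM and passed, at -0.19, with the length correction (adjusted p = 0.0259). NPC1, which exports cholesterol from the lysosome, showed the widest gap between the compounds in this group. It rose by 0.59 with TXX-1-10 (adjusted p = 9.48e-06), gave -0.14 with rimonabant (95% interval -0.28 to -0.01, adjusted p = 0.0781) and differed by 0.74 between them (adjusted p = 3.56e-06). Without rimonabant replicate 2 or TXX-1-10 replicate 3 the rimonabant value of NPC1 passed (-0.18 and -0.14, adjusted p = 0.0496 and 0.0356).

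Most V-ATPase genes rose with both compounds. Of the 14 subunit genes tested in 9 or 8 libraries, 13 rose and 1 fell with TXX-1-10 (median log2 fold change 0.52), and 14 rose with rimonabant (median 0.42), where 30.5% to 34.7% and 23.7% of all genes were higher. TXX-1-10 was above rimonabant for 6, below it for 1 and not told apart from it for 7. Of all genes 25.1% to 26.7% were above and 33.9% to 39.4% below. Without rimonabant replicate 3 TXX-1-10 was above rimonabant for 3, ATP6AP1, ATP6V1E1 and ATP6V1G1 being lost (adjusted p = 0.0765, 0.0647 and 0.0840). Without TXX-1-10 replicate 3 it was below rimonabant for 2. In the V0 sector with its accessory subunits 2 of 6 differed between the compounds, with a median difference of 0.08 on the log2 scale. That count was 1 of 6 without rimonabant replicate 3 or TXX-1-10 replicate 3. Of all 4236 genes in the 9-library fit 1065 were higher, 1667 lower and 1504 did not pass, with a median of -0.08.

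ATP6V0A1 (chr17:42458844-42522611), a large subunit that forms the path of the protons, led the V0 sector with TXX-1-10. Its FPKM was 8.12, 7.94 and 8.32 in vehicle, 11.3, 12.2 and 11.8 in rimonabant, and 14.8, 14.5 and 13.6 in TXX-1-10. The groups did not overlap, and TXX-1-10 replicate 3 was the lowest of its treatment. ATP6V0A1 rose by 0.82 ± 0.05 with TXX-1-10 and by 0.53 ± 0.05 with rimonabant (adjusted p = 2.12e-07 and 2.93e-05), and the compounds differed by 0.28 (adjusted p = 0.000665). ATP6AP2 (chrX:40579372-40606848), an accessory subunit also known as the prorenin receptor, rose least with TXX-1-10 of those in 9 libraries. It had 9.4996, 9.22 and 8.86 FPKM in vehicle, 10.8, 10.2 and 10.5 in rimonabant and 10.3, 10.3 and 11.5 in TXX-1-10. Both treated groups lay above vehicle and overlapped each other. ATP6AP2 rose by 0.22 and 0.20 (adjusted p = 0.00607 and 0.0181), and the call for rimonabant was lost without vehicle replicate 2, vehicle replicate 3 or rimonabant replicate 3 (adjusted p = 0.0528 to 0.0695).

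ATP6V0D1, the stalk-linking subunit, rose by 0.72 with TXX-1-10 and by 0.59 with rimonabant (adjusted p = 3.21e-05 and 0.000436). ATP6V0B, a proteolipid of the rotating ring, rose by 0.51 and 0.47 (adjusted p = 0.000316 and 0.00134). ATP6V0E1, a small membrane subunit, rose by 0.47 and 0.49 (adjusted p = 0.00125 and 0.00229). Differences between the compounds were 0.13 (95% interval -0.06 to 0.32), 0.04 (-0.15 to 0.23) and -0.01 (-0.23 to 0.20) for these 3 genes, the last turning to 0.07 with TMM scaling. The difference of ATP6V0D1 was 0.22 and passed with TMM, DESeq2 or median scaling (adjusted p = 0.0313, 0.0107 and 0.0311) or without rimonabant replicate 1 (adjusted p = 0.0308). ATP6AP1, the other accessory subunit, rose by 0.41 and 0.19 (adjusted p = 0.000367 and 0.0456), the second call being lost without vehicle replicate 1 or 2, rimonabant replicate 1 or 2 or TXX-1-10 replicate 1 (adjusted p = 0.0643 to 0.157). ATP6AP1 was higher with TXX-1-10 than with rimonabant by 0.22 (adjusted p = 0.0184), a call lost without rimonabant replicate 3 (0.18, adjusted p = 0.0765) or TXX-1-10 replicate 3 (0.16, adjusted p = 0.0523). ATP6V0C, the main ring proteolipid, had 94 to 172 reads in 7 libraries and shares 72.1% of its exonic length with other genes. In the 7-library fit it gave 0.25 with TXX-1-10 (95% interval -0.16 to 0.66) and -0.04 with rimonabant (95% interval -0.49 to 0.41).

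**Figure D4:**
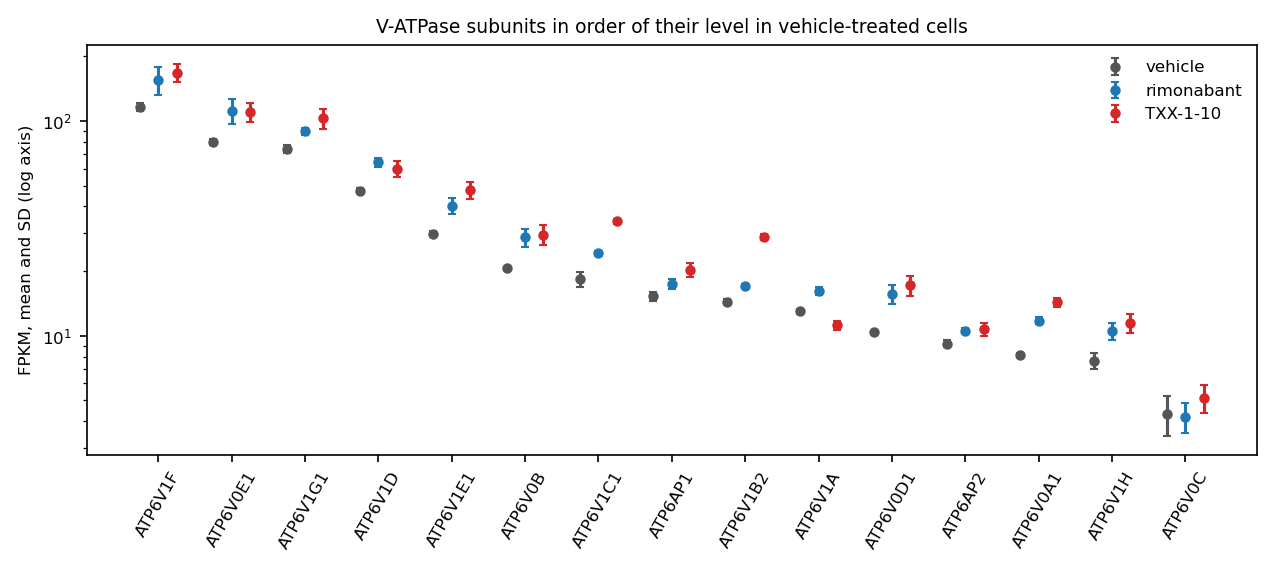
FPKM (mean and SD of the libraries that list the gene, log axis) of 15 V-ATPase genes in order of their vehicle level. Rimonabant (blue) lies above vehicle (grey) for 14 of them, and ATP6V1A alone has TXX-1-10 (red) below vehicle.

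In the V1 sector the genes of the catalytic head diverged. ATP6V1A (chr3:113747019-113812056) encodes subunit A, which holds the catalytic site, and ATP6V1B2 (chr8:20197367-20226819) encodes subunit B, which alternates with it in the ring. ATP6V1A had 13.3, 12.6 and 13.1 FPKM in vehicle, 15.8, 15.8 and 17.0 in rimonabant and 10.9, 10.7 and 11.8 in TXX-1-10. ATP6V1B2 had 14.6, 13.9 and 14.6 in vehicle, 17.3, 17.1 and 16.8 in rimonabant and 28.3, 28.3 and 29.9 in TXX-1-10. For ATP6V1A the rimonabant libraries were the highest and the TXX-1-10 libraries the lowest, and for ATP6V1B2 the TXX-1-10 libraries were the highest, without overlap in either gene.

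ATP6V1A fell by 0.22 ± 0.06 with TXX-1-10 (adjusted p = 0.00476), rose by 0.31 ± 0.06 with rimonabant (adjusted p = 0.00119) and differed between them by -0.54 (adjusted p = 1.68e-05). The fall of ATP6V1A was -0.12 with TMM, DESeq2 or median scaling, with adjusted p-values of 0.0654, 0.0546 and 0.0658. ATP6V1B2 rose by 1.003 ± 0.04 with TXX-1-10 and by 0.25 ± 0.04 with rimonabant (adjusted p = 1.71e-08 and 0.00118). The compounds differed by 0.75 for it (adjusted p = 2.48e-07).

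The other 6 genes of V1 rose with both compounds. ATP6V1C1, whose product governs the assembly of V1 on V0, rose by 0.90 and 0.41 (adjusted p = 2.61e-07 and 0.000327) and was higher with TXX-1-10 than with rimonabant by 0.49 (adjusted p = 3.80e-05). ATP6V1E1 and ATP6V1G1 form the peripheral stalks. ATP6V1E1 rose by 0.68 and 0.43 (adjusted p = 2.14e-05 and 0.00147), and ATP6V1G1 rose by 0.47 and 0.27 (adjusted p = 0.000212 and 0.0133). ATP6V1G1 had an adjusted p of 0.0501 to 0.0518 for rimonabant without vehicle replicate 2 or 3. ATP6V1D and ATP6V1F form the central rotor. ATP6V1D rose by 0.34 and 0.44 (adjusted p = 0.00100 and 0.000491), and ATP6V1F by 0.53 and 0.42 (adjusted p = 0.000984 and 0.00804), with 23.7% of its exonic length shared with other genes. ATP6V1H, a regulatory subunit, rose by 0.59 and 0.46 in the fit on 8 libraries (adjusted p = 5.52e-05 and 0.00238). The compounds differed by 0.25 for ATP6V1E1 and by 0.20 for ATP6V1G1 (adjusted p = 0.0164 and 0.0340), both calls being lost without rimonabant replicate 2 or 3, and the second also without vehicle replicate 2 or TXX-1-10 replicate 3 (0.11, adjusted p up to 0.0954). For ATP6V1D, ATP6V1F and ATP6V1H the difference between the compounds was -0.10 (95% interval -0.25 to 0.05), 0.11 (-0.12 to 0.34) and 0.13 (-0.08 to 0.34). Without rimonabant replicate 1 that of ATP6V1F was 0.24 (adjusted p = 0.0254), and without TXX-1-10 replicate 3 that of ATP6V1D was -0.17 (adjusted p = 0.0210).

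Beyond these 44, 93 genes of 5 related lists were read in the same way, and 78 of them could be tested in 9 or 8 libraries. With TXX-1-10, 42 rose, 19 fell and 17 did not pass (median log2 fold change 0.25), and 9 rose and 2 fell past both thresholds. Among all genes of the 8-library fit 34.7% rose and 40.6% fell, 5.28% and 7.39% past both thresholds, beside 30.5% and 43.8% that rose and fell among the genes of the 9-library fit. With rimonabant 29 rose, 8 fell and 41 did not pass (median 0.13), where 23.7% of all genes were higher in either fit. The count lower with rimonabant was 13 without TXX-1-10 replicate 3. Among other lysosomal enzymes 15 of 26 rose and 7 fell with TXX-1-10, among other membrane proteins 8 of 14 rose and 4 fell, and among genes of mannose 6-phosphate sorting 5 of 11 rose and 2 fell. Of other V-ATPase genes 2 of 5 rose and 2 fell, shares close to those of all genes, and of genes that control TFEB through mTORC1 and calcineurin 12 of 22 rose and 4 fell. The medians of the 5 lists with TXX-1-10 were 0.33, 0.26, 0.15, 0.09 and 0.25.

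The largest change in these lists was that of RRAGC, a Rag GTPase that brings mTORC1 to the lysosome, which rose by 2.42 with TXX-1-10 and by 1.02 with rimonabant (adjusted p = 6.77e-10 and 4.02e-05). RRAGD, its close relative, rose by 1.39 and 0.84 (adjusted p = 1.21e-09 and 3.40e-06). LAMP3, a relative of LAMP1, rose by 1.90 and 0.46 (adjusted p = 2.09e-08 and 0.0191). RRAGC, RRAGD, LAMP3 and IDUA were fitted on 8 libraries. SLC17A5, the exporter of sialic acid, rose by 1.55 and 0.64 (adjusted p = 6.54e-09 and 2.61e-05), and CLCN7, the chloride-proton exchanger, by 1.39 and 0.41 (adjusted p = 3.50e-09 and 0.000110). IDUA, an enzyme that degrades glycosaminoglycans, rose by 1.27 and 0.98 (adjusted p = 8.26e-08 and 1.72e-05). SORT1, a sorting receptor, fell by 1.34 and 0.71 (adjusted p = 2.93e-08 and 2.03e-05). ATP6V0E2, the other gene for the small subunit e, fell by 1.14 with TXX-1-10 (adjusted p = 4.34e-07) and gave 0.15 with rimonabant (adjusted p = 0.115), while ATP6V0E1 rose with both.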

How the data were processed

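RNA of 9 MDA-MB-231 libraries, 3 per treatment by the labels, was selected with oligo(dT) and sequenced on an Illumina instrument. The submitters' processing notes name HISAT2 2.0.5 and featureCounts 1.5.0-p3. How reads in overlapping genes or on the opposite strand were counted is not given in the sources used here. The authors deposited whole-number counts without normalization and FPKM values made from the count, the exonic length and a library total. That total was recovered and used as library size. In vehicle replicates 1 and 3 it is smaller than the sum of the listed counts. In TXX-1-10 replicates 2 and 3 it is larger, at 18394759 and 18405221 against listed sums of 16836181 and 17493322. With this total TXX-1-10 lay lower against vehicle than with TMM (median log2 fold change of all genes -0.09, beside 0.00). Coordinates are those of GRCh38, and exonic lengths equal GENCODE's.

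Counts were fitted with edgeR 4.0.16 in R 4.3.3 (estimateDisp, glmQLFit, glmQLFTest) for 4236 genes listed in all 9 libraries with a mean FPKM of at least 1, and Benjamini-Hochberg adjusted within each comparison. Members not listed for rimonabant replicate 1 came from a fit of 9369 genes in 8 libraries, and TFEB and ATP6V0C from a fit of 11631 genes in 7 libraries with a mean FPKM of at least 0.5, where vehicle and rimonabant have 2 libraries. A standard error is the log2 fold change divided by the square root of F and is approximate. Scripts were tested on simulated counts. DESeq2 1.42.0, limma 3.58.1, TMM, median scaling, other filters, a length correction, a replicate block and leaving out libraries were alternatives. Replicate numbers did not consistently pair the libraries. Members, lists and the rule for named genes (the TFEB family, members past both thresholds, the extremes of each role group, members moving in opposite directions, and up to 8 other genes) were chosen with earlier results of these data known. Plots were made with matplotlib 3.10.9.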

Additional observations from a re-analysis of the deposited data

How the results depend on the processing

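Counts over the 36 members of the 9-library fit kept within 1.5 times of the values reported, except as follows. Members past both thresholds upward with TXX-1-10 against vehicle numbered 6, not 10, without rimonabant replicate 1 and TXX-1-10 replicate 3 together, and 6 to 10 with 1 library left out. Members lower with rimonabant against vehicle numbered 4, not 2, with the gene length correction or without both libraries, and 1 to 4 with 1 library left out (1 without vehicle replicate 2 or rimonabant replicate 3, and 4 without TXX-1-10 replicate 3). Members lower with TXX-1-10 than with rimonabant numbered 3, not 5, with TMM, DESeq2, median scaling, the replicate block or the genes of 8 libraries, and 3 to 5 with 1 library left out. Members past both thresholds upward in that comparison numbered 3, not 0, with TMM, DESeq2, median scaling or the genes of 8 libraries, 1 with the gene length correction, with or without the replicate block, or without both libraries, and 0 to 3 with 1 library left out. By role, hydrolases lower with TXX-1-10 than with rimonabant numbered 2, not 4, with TMM, DESeq2, median scaling, the block or the genes of 8 libraries, and 2 to 4 with 1 library left out. V-ATPase genes higher in that comparison numbered 3, not 6, without rimonabant replicate 3. V1 genes higher in it numbered 2, not 4, without rimonabant replicate 2 or 3. V-ATPase genes lower with TXX-1-10 than with vehicle numbered 0, not 1, with TMM, DESeq2 or median scaling. Membrane proteins lower with rimonabant than with vehicle numbered 1, not 0, with the length correction, without both libraries, or without rimonabant replicate 2 or TXX-1-10 replicate 3. Genes of the other lists lower with rimonabant than with vehicle numbered 14, not 8, without both libraries, and those past both thresholds upward with TXX-1-10 numbered 5, not 9, with limma and a pseudocount of 1. The cause was not tested.

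Over the 44 members and 8 other named genes, 3300 alternative values in 156 comparisons kept their direction and side of the threshold in 3131 cases, 92 lost the threshold, 44 gained it, and 33 changed sign. Alternatives for TFEB and ATP6V0C were chosen after seeing the data and comprise 12 fits each. All sign changes were of values that had not passed. For TXX-1-10 against rimonabant, SCARB2 gave 0.027, 0.028 and 0.028 with TMM, DESeq2 and median scaling. ATP6V0E1 gave 0.073, 0.074 and 0.074 with these, 0.068 and 0.069 with the length correction without and with the replicate block, 0.097 with the genes of 8 libraries, 0.00835 without both libraries, and -0.103 to 0.097 with 1 library left out (0.025 and 0.031 without TXX-1-10 replicate 1 and 2). ATP6AP2 gave -0.028 and -0.029 with the length correction without and with the block, -0.016 without both libraries and -0.035 to 0.051 with 1 library left out. CTSZ gave -0.0034 without both libraries, -0.012 without rimonabant replicate 2, and -0.061 to 0.080 with 1 library left out. ATP6V0B gave -0.0078 without rimonabant replicate 2, and -0.052 to 0.119 with 1 library left out. For TXX-1-10 against vehicle, PPT1 gave -0.042 without both libraries, and -0.042 to 0.079 with 1 library left out. For rimonabant against vehicle, LAMP2 gave 0.0075 with the genes of 8 libraries, without both libraries or without rimonabant replicate 1, from -0.0399 to 0.0075 with 1 library left out, and GUSB gave -0.0084 to 0.072 with 1 left out. TFEB gave -0.186 to 0.455 there. ATP6V0C gave 0.095 with the replicate block, 0.0197 with the length correction and -0.239 to 0.194 with 1 left out.

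Same-numbered libraries of a compound and vehicle did not deviate together (correlations of -0.06, 0.01 and -0.07 for TXX-1-10, and -0.05, 0.04 and 0.04 for rimonabant). Between TXX-1-10 and rimonabant the correlations were -0.79, 0.83 and -0.61, so replicate 2 deviated together and replicates 1 and 3 in opposite directions. Deviations followed gene length with Spearman rho of -0.694, 0.667 and 0.477 in rimonabant replicates 1 to 3. In TXX-1-10 replicates 1 to 3 these were 0.591, 0.655 and -0.692, and the cause was not tested. With the replicate block 30, 25 and 22 members were higher in the 3 comparisons, beside 30, 27 and 23. Depth limits TFEB and ATP6V0C, with 47 to 172 reads per library.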
